A study of Mus musculus with 48 samples.

Results

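Mycl, Smim10l2a, Tmem52, Deaf1 and Rpain are 5 of the 35870 genes in the count table. They were picked by symbol because, in an earlier look at these data, each was lower in sorted microglia of old mice than of young mice and higher again in microglia of old mice treated to renew them. The 3 microglial comparisons therefore served the choice, and their values are given as a description with no test. All 5 genes passed the filter on low counts in both tissues, where 14382 genes were tested in microglia and 18271 in spinal cord. The libraries hold polyadenylated RNA of C57BL/6 wild type mice from brain cells sorted as Cd11b+ and Cd45+ or from whole spinal cord. In each tissue 8 libraries came from old repopulated mice (labelled Old Rep, 23 months, given a Csf1r inhibitor for 5 days and then 7 days to recover), 8 from old mice (23 months, vehicle) and 8 from young mice (3 months, vehicle). There was no young group given the inhibitor, so all repopulated animals were old. The labels do not say that libraries of a group are separate animals, and p-values then measure the spread between these libraries, which may be technical.

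Csf1r is the receptor through which microglia, the resident macrophages of the brain, receive their survival signal, and cells that outlast its inhibition refill the tissue once the drug is withdrawn. Mycl encodes L-Myc, a relative of c-Myc that pairs with Max through a helix-loop-helix and leucine zipper and binds the E-box, and in mice it is best known from dendritic cells. Deaf1 is a transcription factor with a SAND domain that binds TTCG, and it takes the adaptor Lmo4 as a partner. Rpain, known mainly from frog and human cells, carries the single-strand binding protein RPA into the nucleus together with importin beta. Smim10l2a and Tmem52 encode membrane proteins of which little is known.

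Depth and the share of ribosomal protein counts differed between groups. A library held between 23808223 and 31414974 counts in repopulated, 18741936 to 27755121 in old and 28373152 to 34496308 in young microglia, and from 15909868 to 33004806 in repopulated, 22802459 to 31075737 in old and 23756093 to 32172147 in young cord. Ribosomal protein genes took a median of 5.04% of counts in repopulated, 3.12% in old and 2.11% in young microglia. One library stood apart, repopulated cord library 6, with 2.90% ribosomal protein counts against a group median of 1.07%, and with the fewest genes detected of all cord libraries (22326). The sum of 8 microglia markers had a median of 40676 CPM in repopulated, 39482 CPM in old and 55476 CPM in young sorted cells, against 407.99 CPM in repopulated, 344 CPM in old and 240 CPM in young cord. Markers of other myeloid cells differed between the groups of sorted libraries in the opposite direction from the 5 genes. The sum of 8 neutrophil markers ran from 766 to 3448 CPM in repopulated, 1940 to 8576 CPM in old and 205 to 977 CPM in young microglia, and the sum of 6 monocyte markers from 104 to 317 CPM in repopulated, 358 to 785 CPM in old and 81.6 to 157 CPM in young microglia. The sum of 6 border macrophage markers ran from 58.4 to 84.9 CPM in repopulated, 219 to 474 CPM in old and 124 to 321 CPM in young microglia, and that of 7 dendritic cell markers from 11.3 to 38.9 CPM in repopulated, 33.9 to 138 CPM in old and 14.1 to 46.4 CPM in young microglia. All 8 neutrophil markers were called lower in repopulated than in old microglia (7.2% of 14382 genes were called lower) and all 8 were called higher in old than in young microglia (11% of genes were called higher). In the same comparisons 4 of 6 monocyte, 6 of 6 border macrophage and 3 of 7 dendritic cell markers were called lower in repopulated than in old microglia, and 6 of 6 monocyte, 3 of 6 border macrophage and 4 of 7 dendritic cell markers higher in old than in young microglia. None of these markers was at 0 in all libraries of any of the 3 microglia groups, and their part in the values of the 5 genes was not tested. In bulk libraries fewer cells of a type and less RNA per cell cannot be told apart.

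Mycl lies on the plus strand of chr4:122995652-123002485 (GRCm38, GENCODE M21), with no other annotated gene within 10 kb. Its level in microglia, as CPM (counts relative to the TMM-scaled total of the library), had a lowest, median and highest value of 25.5, 29.6 and 37.1 in repopulated libraries, of 11.5, 14.9 and 20.3 in old libraries and of 22.1, 29.8 and 32.2 in young libraries. All 8 old libraries lay below every young and every repopulated library, and 6 of the 8 repopulated libraries fell inside the range of the young ones. The log2 difference was 1.0 (SE 0.12) for repopulated minus old, −0.96 (SE 0.12) for old minus young and 0.04 (95% interval −0.19 to 0.28) for repopulated minus young. On the deposited TPM, which divide by gene length, the means were 15.5 ± 2.5 in repopulated, 9.29 ± 2.70 in old and 18.7 ± 2.3 in young microglia (SD, n = 8 each).

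The stretch before a start inside the annotated span of Mycl is shown because L-Myc pairs with Max to bind the E-box CACGTG, and the stretch before the inner start of Deaf1 because it is dense in TTCG, the core that Deaf1 binds. Both are the 250 bases before an annotated start, from RefSeq on GRCm38.p6, 5′ to 3′ on the strand of the gene, at chr4:122995681-122995930 for Mycl (plus strand, start at 122995931) and chr7:141327726-141327975 for Deaf1 (minus strand). Capitals mark TTCG or its reverse complement CGAA.
Mycl: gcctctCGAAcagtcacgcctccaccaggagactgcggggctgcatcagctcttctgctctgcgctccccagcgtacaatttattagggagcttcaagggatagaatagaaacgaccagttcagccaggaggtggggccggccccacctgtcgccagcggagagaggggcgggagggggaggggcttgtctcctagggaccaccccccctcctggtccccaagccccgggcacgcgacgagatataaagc
Deaf1: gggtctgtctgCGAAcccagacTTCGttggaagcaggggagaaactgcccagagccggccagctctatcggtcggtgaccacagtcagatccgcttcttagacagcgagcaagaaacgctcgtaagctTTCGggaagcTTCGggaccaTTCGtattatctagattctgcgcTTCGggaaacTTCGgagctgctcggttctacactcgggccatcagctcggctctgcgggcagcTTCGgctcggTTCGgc
The Deaf1 stretch held 9 copies on both strands together, 8 of TTCG and 1 of CGAA, a number that 1 of 32841 annotated promoters of this length reached (0.00304%), namely Deaf1 itself. As the stretch is shown for its density, this rank is a description. In GENCODE M21 it overlaps the start of Tmem80 on the opposite strand (141327739), so it does not belong to Deaf1 alone. The other annotated start of Deaf1 had 0 copies in its 250 bases, and those of Mycl, Rpain and Smim10l2a had 1 each, where 38.7% of all promoters had at least 1. CACGTG, searched on both strands, had 0 copies in these stretches of the 4 genes with an entry and was in 6.02% of all promoters. Tmem52 had no entry.

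Smim10l2a, a small integral membrane protein gene on the plus strand of chrX:56374586-56377799, was the member with the widest spread among repopulated libraries. It stood at 8.49, 14.7 and 23.96 CPM (lowest, median, highest) in repopulated, 3.603, 5.84 and 11.6 CPM in old and 10.02, 13.4 and 18.9 CPM in young microglia. Of the old libraries 7 of 8 lay below every young one, and 6 of the 8 repopulated libraries lay above every old one. The log2 difference was 1.15 (SE 0.22) for repopulated minus old, −1.05 (SE 0.22) for old minus young and 0.10 (95% interval −0.32 to 0.51) for repopulated minus young. An antisense gene, Gm2155, overlaps its first 205 bases in the annotation, and the library kit keeps no strand, so reads of both would be counted together there. Zfp449, the next gene before it, had log2 differences of −0.20 (adjusted p = 0.669) for repopulated minus old and −0.25 (adjusted p = 0.586) for old minus young microglia in the edgeR test.

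Tmem52, on the plus strand of chr4:155469114-155470858, had the highest per-length level of the 5 in young microglia. Its values were 6.29, 10.99 and 12.7 CPM in repopulated, 2.98, 5.63 and 7.45 CPM in old and 7.45, 12.3 and 15.3 CPM in young microglia (lowest, median, highest). In TPM its means were 20.4 ± 4.9 in repopulated, 12.7 ± 4.5 in old and 30.0 ± 7.1 in young microglia (SD, n = 8 each). Of the repopulated libraries 6 of 8 lay above every old one and 7 of 8 below the young median. The log2 difference was 0.94 (SE 0.21) for repopulated minus old, −1.17 (SE 0.21) for old minus young and −0.23 (95% interval −0.63 to 0.17) for repopulated minus young.

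Deaf1 lies on the minus strand of chr7:141297180-141327690. RefSeq extends it to a start at 141338783, and this longer span covers Tmem80 on the plus strand, so its unstranded counts are less certain there. Deaf1 stood at 7.97, 15.3 and 20.3 CPM in repopulated, 3.25, 9.57 and 12.1 CPM in old and 10.6, 13.5 and 17.0 CPM in young microglia (lowest, median, highest). Of the old libraries 6 of 8 lay below every young one, and 7 of the 8 repopulated libraries lay above every old one. The log2 difference was 0.76 (SE 0.21) for repopulated minus old, −0.65 (SE 0.21) for old minus young and 0.11 (95% interval −0.29 to 0.51) for repopulated minus young. Leaving out old libraries 2 and 7 together, an alternative taken over from the earlier look at these data, gave a difference of old minus young of −0.40 (SE 0.16). Tmem80 was not called, with log2 differences of 0.33 (adjusted p = 0.403) for repopulated minus old and 0.07 (adjusted p = 0.897) for old minus young microglia in the edgeR test.

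Rpain, on the plus strand of chr11:70970213-70977833, had the smallest log2 difference of repopulated minus old microglia among the 5 on TMM-scaled counts of all libraries, while without old libraries 2 and 7 Deaf1 had the smallest (0.52, against 0.71 for Rpain). It stood at 5.35, 7.71 and 12.5 CPM in repopulated, 3.04, 4.58 and 8.29 CPM in old and 8.65, 10.002 and 12.1 CPM in young microglia (lowest, median, highest). All 8 old libraries lay below every young one, while 3 of the 8 repopulated libraries lay above every old one and 5 lay below every young one. The log2 difference was 0.64 (SE 0.21) for repopulated minus old, −0.93 (SE 0.21) for old minus young and −0.29 (95% interval −0.69 to 0.11) for repopulated minus young. Its neighbours are 239 bases away on one side (Nup88, a nuclear pore protein) and 2 bases away on the other (C1qbp, a mitochondrial protein), both on the opposite strand, and RefSeq lets Rpain and C1qbp overlap. Nup88 fell in old against young microglia (log2 −0.31, SE 0.09, edgeR adjusted p = 0.0146), a call lost with total-count scaling (adjusted p = 0.0504). Its repopulated minus old difference was −0.00055 (SE 0.094, adjusted p = 0.998). C1qbp was not called in these 2 comparisons, at 0.27 (edgeR adjusted p = 0.108) for repopulated minus old and 0.20 (adjusted p = 0.233) for old minus young. Without repopulated library 2 the first was called, barely (0.33, edgeR adjusted p = 0.049995). In repopulated against young microglia C1qbp was called higher (0.48, edgeR adjusted p = 0.0014), but not on log2(TPM + 1) by limma (0.13, adjusted p = 0.222).

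**Figure D1:**
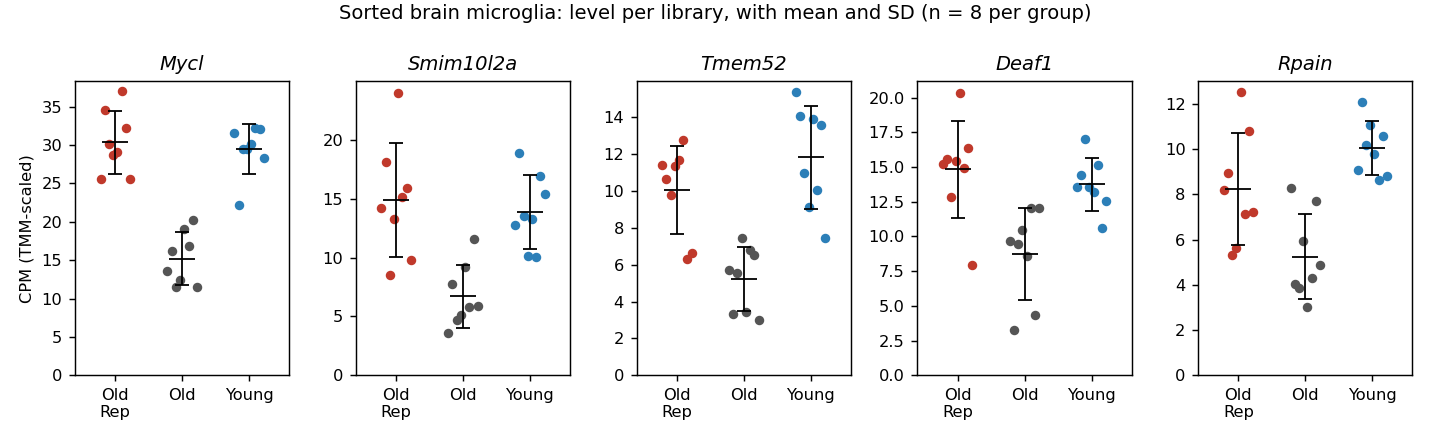
Level of each of the 5 genes in sorted microglia, in CPM on a linear axis from 0, with 1 point per library for the old repopulated, old and young groups; the black line and bar give the mean and SD of 8 libraries. For Mycl the 8 old libraries (11.5 to 20.3 CPM) sit below all others, while for Rpain the repopulated libraries (5.35 to 12.5 CPM) overlap both other groups.

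Of 14382 genes, 183 (1.27%) were called both lower in old than in young microglia and higher in repopulated than in old ones, and the 5 members are among them by choice. Ordered by the smaller of the 2 log2 differences, Smim10l2a was at place 5, Mycl at 6, Tmem52 at 7, Deaf1 at 9 and Rpain at 10. Both comparisons use the same 8 old libraries. The libraries at the ends of the old group differed between members. The lowest old value belonged to library 3 for Mycl, 1 for Smim10l2a, 8 for Tmem52, 2 for Deaf1 and 5 for Rpain.

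How far the level came back depended on the scale. On log2(TPM + 1) the difference of repopulated minus young microglia was −0.26 (SE 0.13) for Mycl, −0.23 (SE 0.20) for Smim10l2a, −0.53 (SE 0.19) for Tmem52, −0.18 (SE 0.17) for Deaf1 and −0.61 (SE 0.17) for Rpain. All 5 lay below 0 on that scale, against 2 of 5 on the TMM-scaled counts, while the median of all genes tested lay at −0.28 on log2(TPM + 1) and at −0.06 on the TMM-scaled counts. For repopulated minus old the 5 values on log2(TPM + 1) ran from 0.38 for Rpain to 0.79 for Smim10l2a, with the median of all genes at −0.21. All 5 kept their direction in both comparisons under this and every other setting tried.

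The members were picked on microglial values and not on those of whole spinal cord. The labels do not say whether cord and microglia came from the same mice, so the cord values may not be independent of the choice. Mycl alone of the 5 was called in cord by edgeR, as lower in repopulated than in young mice. It was not called in repopulated against old cord. Its level was 7.96, 8.25 and 10.01 CPM in repopulated, 7.02, 9.85 and 11.01 CPM in old and 8.73, 11.5 and 13.3 CPM in young cord (lowest, median, highest). Of the repopulated libraries 7 of 8 lay below every young one, and 1 of 8 lay above the median of the old ones. Repopulated minus young was −0.43 in log2 (SE 0.09, edgeR quasi-likelihood adjusted p = 0.00121), a 1.35-fold lower level, with adjusted p from 2.96e-05 to 0.0164 over the other settings. In this comparison 10.1% of 18271 genes were called, 7.28% higher and 2.78% lower, beside 1 of 5 members. Old minus young was −0.26 (SE 0.09, edgeR adjusted p = 0.0872), with all 8 old libraries below the young median. That difference was called by the DESeq2 Wald test (adjusted p = 0.0381), without repopulated cord library 6 (adjusted p = 0.0442) and without young cord library 1 (log2 −0.31, adjusted p = 0.0208). Repopulated minus old was −0.17 (95% interval −0.35 to −0.0011, edgeR unadjusted p = 0.0601, adjusted p = 0.681). The interval leaves out 0 because it rests on a normal distribution and is somewhat narrower than the edgeR test implies.

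None of the 5 was called by edgeR in repopulated against old cord, where 27 genes in all were called (0.148%) and 1099 had an unadjusted p under 0.05. Among the 5, Rpain alone had an unadjusted p under 0.05 there (log2 0.29, 95% interval 0.02 to 0.57). Without library 6 that difference was 0.09. DESeq2 also called 0 of the 5. In old against young cord 0 of 5 were called by edgeR beside 6.15% of all genes (1.26% lower), and Mycl alone had an unadjusted p under 0.05.

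The other 4 members were not called by edgeR in any of the 3 cord comparisons. Smim10l2a stood at 16.8, 18.4 and 25.8 CPM in repopulated, 15.9, 19.2 and 22.4 CPM in old and 19.3, 20.6 and 26.0 CPM in young cord. Its difference of repopulated minus young was −0.16 (95% interval −0.34 to 0.01, edgeR adjusted p = 0.251), and without repopulated library 6 it was called (log2 −0.23, adjusted p = 0.0345). Deaf1 stood at 36.6, 40.6 and 53.5 CPM in repopulated, 39.2, 39.9 and 43.3 CPM in old and 39.6, 42.3 and 46.7 CPM in young cord, and its repopulated minus old interval ran from −0.08 to 0.15. Rpain stood at 8.84, 9.89 and 22.3 CPM in repopulated, 8.28, 9.34 and 10.2 CPM in old and 8.53, 9.35 and 10.9 CPM in young cord, so that the groups overlapped. Tmem52 stood at 0.435, 1.06 and 2.56 CPM in repopulated, 0.596, 0.920 and 1.15 CPM in old and 0.763, 0.824 and 1.07 CPM in young cord, from 7 to 68 reads per library. Its difference of repopulated minus young was 0.55 (95% interval 0.04 to 1.07, edgeR adjusted p = 0.186), and 0.36 (adjusted p = 0.351) without repopulated library 6.

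**Figure D2:**
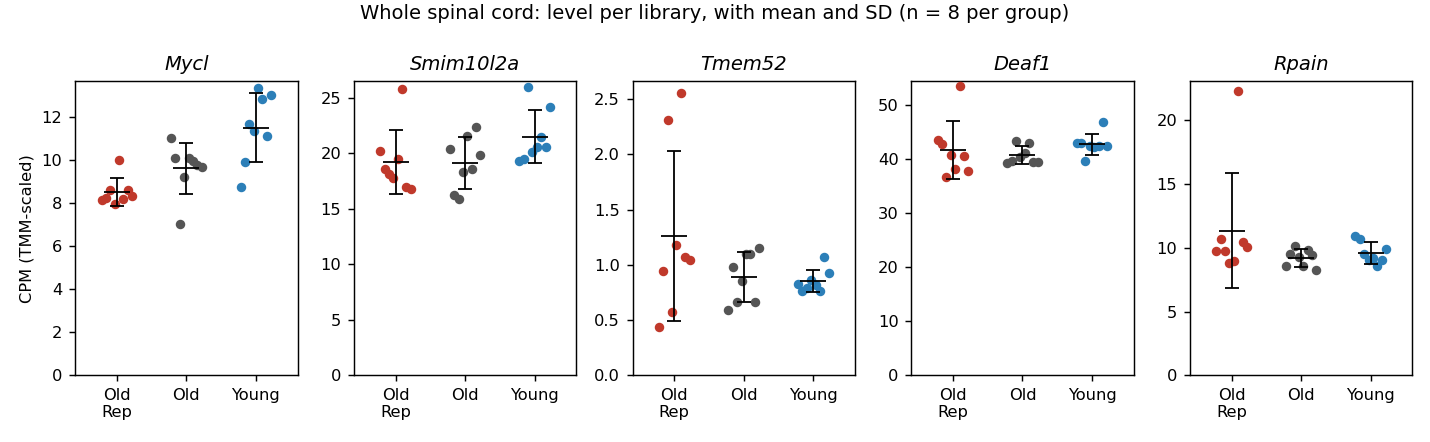
Level of the 5 genes in whole spinal cord, in CPM on a linear axis from 0, with 1 point per library for the old repopulated, old and young groups and the mean and SD of 8 libraries in black. Mycl is lowest in the repopulated group (median 8.25 CPM), and 1 repopulated library, number 6, sits far above its group for Rpain (22.3 CPM) and Deaf1 (53.5 CPM).

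Repopulated cord library 6 had the highest TMM-scaled level of its group for 4 of the 5 members, with Mycl as the exception. On the TPM scale the same library was the lowest of its group for Mycl (3.15 TPM), Smim10l2a (12.6 TPM) and Deaf1 (9.25 TPM), and the highest for Rpain (26.8 TPM). The side on which this library stood for Smim10l2a and Deaf1 thus differed between the TMM-scaled counts and the TPM.

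**Figure D3:**
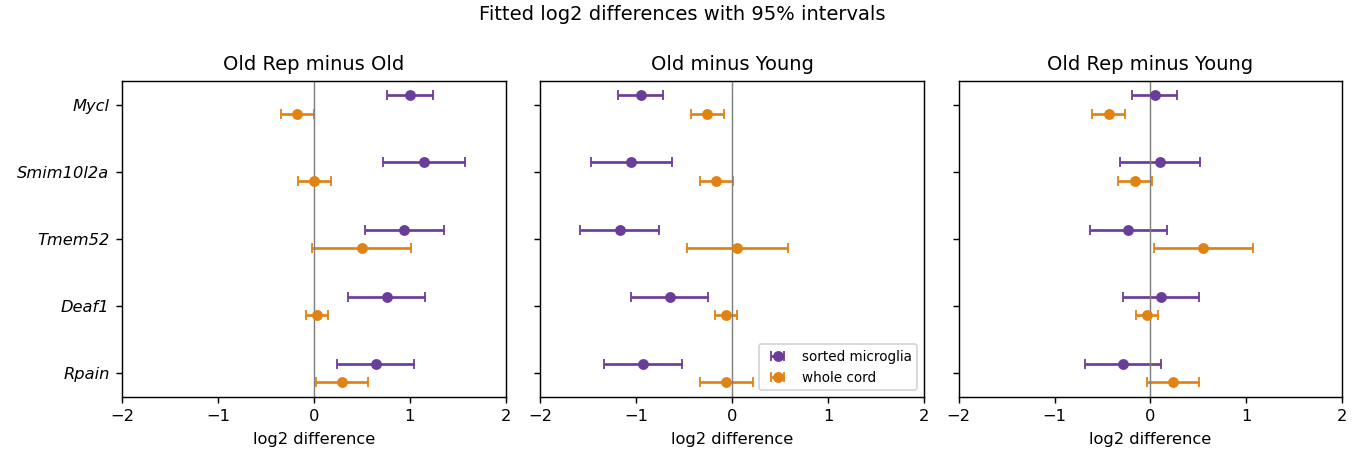
Fitted log2 differences of the 5 genes with 95% intervals, for old repopulated minus old (left), old minus young (middle) and old repopulated minus young (right), in sorted microglia (purple) and whole cord (orange). The microglial differences lie between 0.64 and 1.15 in the left panel and between −1.17 and −0.65 in the middle one, and were fixed in direction by the choice of genes; in cord the Mycl value in the right panel, −0.43, is the one past the threshold.

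Between tissues, taking the mean of the 3 groups in each, 4 of 5 members differed beside 91.2% of 19110 genes (36.2% higher and 54.9% lower in microglia). Tmem52 was higher in microglia by 3.85 in log2 (SE 0.16, edgeR adjusted p = 3.7e-27) and Mycl by 2.03 (SE 0.06, adjusted p = 1.53e-31), while Deaf1 was lower by −1.03 (SE 0.09, adjusted p = 6.32e-14). In TPM, Tmem52 averaged 21.0 ± 9.0 in microglia and 2.82 ± 1.05 in cord, Mycl 14.5 ± 4.6 in microglia and 7.18 ± 1.47 in cord, and Deaf1 3.23 ± 1.01 in microglia and 13.5 ± 1.2 in cord (SD, n = 24 libraries each). For Rpain the order of the tissues changed with the scale, and for Smim10l2a the size and the call did. Rpain was higher in microglia by 0.33 (edgeR adjusted p = 0.00128) on TMM-scaled counts and lower by −0.69 on log2(TPM + 1). Smim10l2a had −0.11 (edgeR adjusted p = 0.271) and −1.10 (limma adjusted p = 6.2e-16) on the same scales. The median of all genes lay at −0.58 on the TMM-scaled counts and at −0.94 on log2(TPM + 1), so that all of these values are relative to unequal baselines. Mycl, Tmem52 and Deaf1 kept their direction and their call under every setting tried.

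Within microglia the mean TPM placed Tmem52 (20.4) first in repopulated libraries, then Mycl (15.5), Rpain (12.96), Smim10l2a (9.50) and Deaf1 (3.38). In old microglia the order was Tmem52 (12.7), Rpain (9.95), Mycl (9.29), Smim10l2a (5.24) and Deaf1 (2.36), and in young microglia Tmem52 (30.0), Rpain (19.9), Mycl (18.7), Smim10l2a (11.1) and Deaf1 (3.95). Rpain and Mycl were neighbours in each group, and lay within 1 SD of each other in all 3. In old microglia Tmem52 also lay within 1 SD of Rpain, while Deaf1 was last in each group.

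The partners and rivals of Mycl at the E-box were read from a list of 12 genes of the Myc and Max network. Of the 11 tested in microglia, 2 were higher and 2 lower in repopulated than in old cells (list median −0.02, all genes −0.04, where 16.2% of all genes were called), and 1 was higher and 1 lower in old than in young cells (list median −0.09, all genes −0.01, where 21.7% were called). Mxd1, which pairs with Max and represses at the same sites as Myc proteins, stood at 19.2, 21.1 and 28.9 CPM in repopulated, 28.6, 38.5 and 59.4 CPM in old and 19.3, 21.8 and 30.9 CPM in young microglia. It fell in repopulated against old microglia (log2 −0.81, SE 0.13, edgeR adjusted p = 4.3e-05) and rose in old against young microglia (0.81, SE 0.13, adjusted p = 2.2e-05), which is the opposite order of the groups from Mycl. The marker sums of neutrophils, monocytes, border macrophages and dendritic cells also had their highest median in old microglia. For neutrophils the medians were 1292 CPM in repopulated, 4468 CPM in old and 482 CPM in young libraries. For border macrophages they were 66.8 CPM in repopulated, 361 CPM in old and 191 CPM in young libraries. The part of these cells in the Mxd1 values was not tested. Mxi1, another Max partner of the repressing kind, rose in repopulated against old microglia (0.29, SE 0.07, adjusted p = 0.00534) and fell in old against young microglia (−0.30, SE 0.07, adjusted p = 0.00221), and Mxd4 of the same family rose in repopulated against old cells (0.57, SE 0.16, adjusted p = 0.0126). Myc itself fell in repopulated against old microglia, to 17.5, 31.8 and 37.8 CPM in repopulated libraries, against 33.7, 44.2 and 60.4 CPM in old ones (log2 −0.60, SE 0.15, adjusted p = 0.00434). Max, the shared partner, was not called in either comparison, at −0.02 (adjusted p = 0.929) and 0.21 (adjusted p = 0.0524).

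Genes long known as targets of Myc proteins were called in both directions. Of 15 tested, 3 were higher and 4 lower in repopulated than in old microglia, beside 9.05% higher and 7.2% lower over all genes, and 4 were higher and 1 lower in old than in young microglia, beside 11% higher and 10.7% lower over all genes. The list medians were −0.01 in both comparisons, beside all-gene medians of −0.04 for repopulated minus old and −0.01 for old minus young. Npm1, a nucleolar chaperone, rose in both, by 1.20 (SE 0.12, edgeR adjusted p = 2.02e-08) in repopulated against old and by 0.55 (SE 0.12, adjusted p = 0.001) in old against young microglia. The nucleolar protein Ncl rose by 0.45 (adjusted p = 0.00273) and by 0.36 (adjusted p = 0.0139). Ccnd2, a cyclin of the G1 phase, fell by 1.31 on the log2 scale in repopulated against old microglia (SE 0.23, adjusted p = 0.000104) and rose by 0.85 in old against young microglia (SE 0.23, adjusted p = 0.0059). The ribosome assembly factor Nop56 fell by 0.43 on the log2 scale in repopulated against old microglia (adjusted p = 0.00195).

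A list of 4 genes held partners of Deaf1 or of its adaptor Lmo4. Of these, 1 was higher and 2 were lower in repopulated than in old microglia (list median −0.29, all genes −0.04, 16.2% of all genes called). In old against young microglia 1 was lower (list median −0.16, all genes −0.01, 21.7% called). Ldb1, which binds Lmo4 and other LIM proteins, followed the order of the 5 genes, at 143, 164 and 176 CPM in repopulated, 110, 127 and 148 CPM in old and 153, 163 and 186 CPM in young microglia. It rose in repopulated against old microglia (0.36, SE 0.07, edgeR adjusted p = 0.000149) and fell in old against young microglia (−0.39, SE 0.07, adjusted p = 3.2e-05). Lmo4 fell in repopulated against old microglia (−0.42, SE 0.10, adjusted p = 0.00286), as did Peli1, a ubiquitin ligase (−0.45, SE 0.07, adjusted p = 1.61e-05). Among the other SAND domain genes, 2 of 5 tested were higher and 0 lower in each comparison. The list median was 0.14 for repopulated minus old microglia (all genes −0.04, 9.05% called higher) and 0.24 for old minus young microglia (all genes −0.01, 11% called higher). Sp100, a nuclear body protein induced by interferon, rose by 0.75 (SE 0.14, adjusted p = 0.000313) in repopulated against old and by 1.59 (SE 0.15, adjusted p = 8.72e-10) in old against young microglia, and Sp140 rose by 0.68 (adjusted p = 0.00139) and 0.62 (adjusted p = 0.00206).

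The cargo and carriers of Rpain were read from a list as well. Of 9 genes for RPA subunits, nuclear import and RPA-bound repair factors, 0 were called by edgeR in repopulated against old microglia and 1 was lower in old than in young microglia, with list medians of 0.02 in both, beside 16.2% and 21.7% of all genes called. That gene was Kpnb1, importin beta (−0.28, SE 0.06, edgeR adjusted p = 0.000864), whose repopulated minus old value was −0.09 (SE 0.06), and which was called lower there on log2(TPM + 1) (−0.33, adjusted p = 0.00267) and with total-count scaling (−0.26, adjusted p = 0.00405). Smim10l1, the relative of Smim10l2a with counts, was not called in either comparison (0.23, adjusted p = 0.177, and 0.04, adjusted p = 0.866), and Tmem52b had too few counts to be tested.

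Some of these calls rested on the scaling. On log2(TPM + 1) by limma, the higher calls in repopulated against old microglia were lost for Ldb1 (0.11, adjusted p = 0.206), Mxi1 (0.03, adjusted p = 0.797), Mxd4 (0.36, adjusted p = 0.0885) and Ncl (0.18, adjusted p = 0.202). Mxd1, Myc, Npm1, Ccnd2, Sp100 and Sp140 kept their calls in these 2 comparisons under every setting tried.

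**Figure D4:**
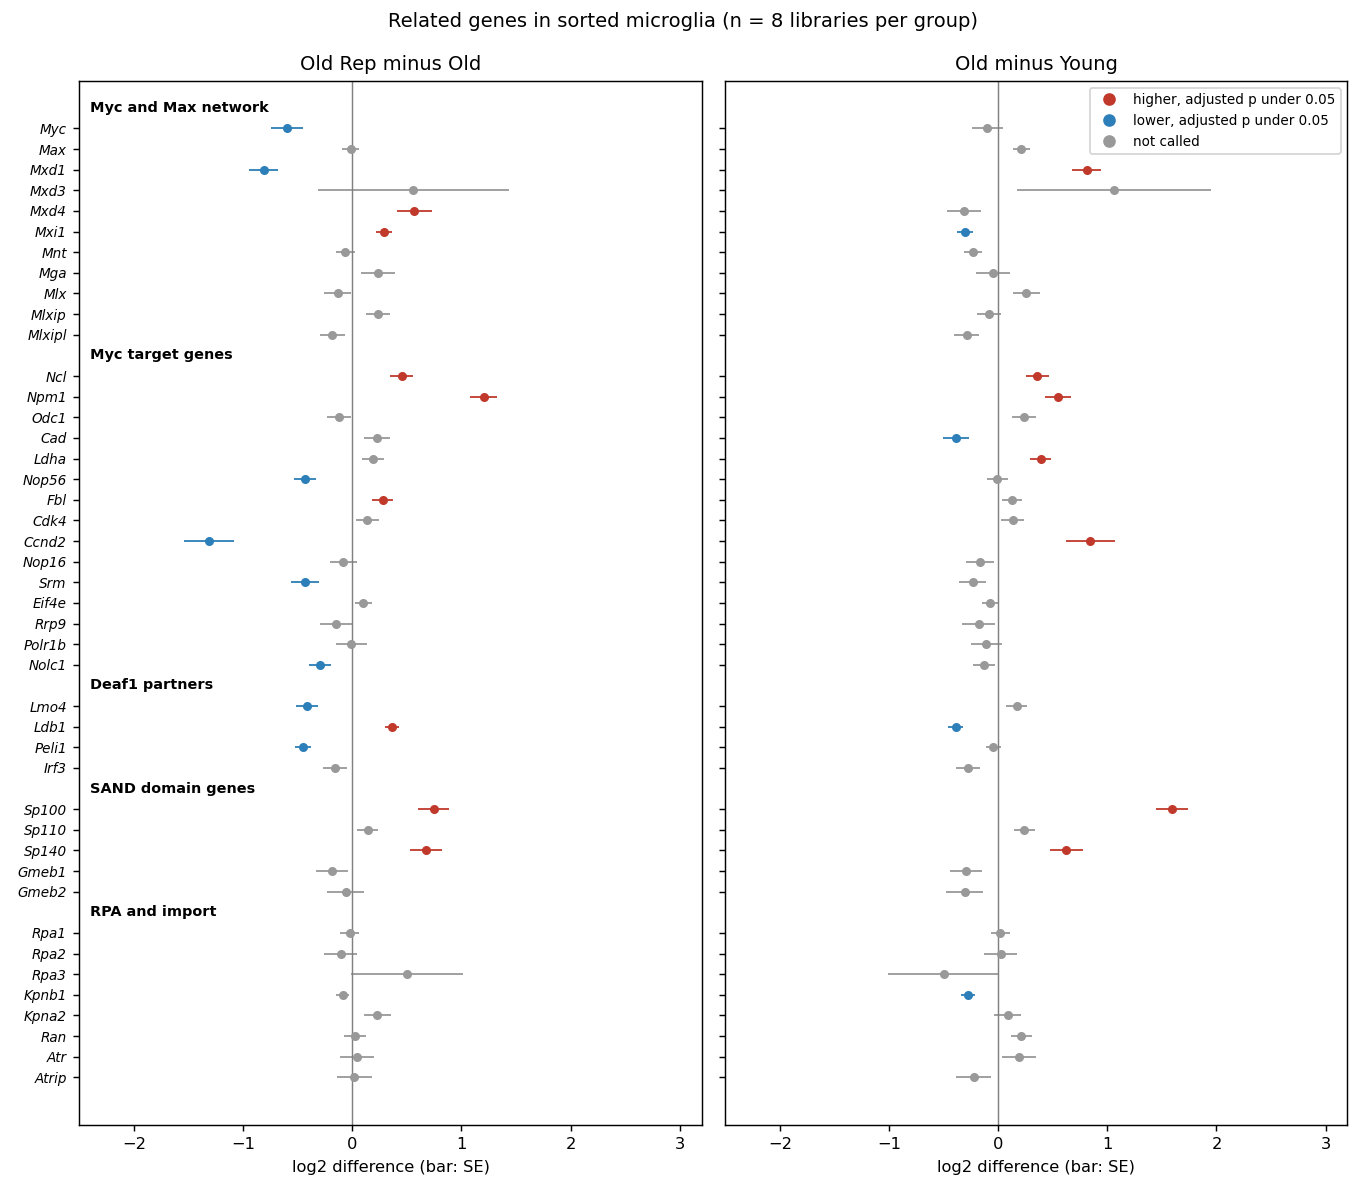
Log2 differences with SE of genes related to Mycl, Deaf1 and Rpain in sorted microglia, for old repopulated minus old (left) and old minus young (right); red and blue points passed an adjusted p of 0.05 in the edgeR test and grey points did not. Mxd1 (−0.81 and 0.81) and Ccnd2 (−1.31 and 0.85) lie on opposite sides in the 2 panels, and Npm1 (1.20 and 0.55) and Sp100 (0.75 and 1.59) lie right of 0 in both.

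In cord 0.148% of all genes were called in repopulated against old, 6.15% in old against young and 10.1% in repopulated against young. The SAND domain genes had 3 of 5 called higher in repopulated against young cord (list median 0.66, all genes 0.01) and 2 of 5 in old against young cord (list median 0.26, all genes −0.01). No gene of these lists was called by edgeR in repopulated against old cord, while Sp100 was called there by the DESeq2 Wald test (0.40, adjusted p = 0.00868) and by edgeR without repopulated library 7 (0.45, adjusted p = 0.0185). In repopulated against young cord the calls included Mlxipl, a glucose-responsive partner of Mlx (0.84, SE 0.12, edgeR adjusted p = 8.09e-06), Sp100 (0.79, adjusted p = 8.25e-07), Sp110 (1.16, adjusted p = 2.67e-05), Sp140 (0.66, adjusted p = 0.00171) and Ccnd2 (−0.33, adjusted p = 0.00235). In old against young cord they were Mlxipl (0.80, adjusted p = 2.49e-05), Sp100 (0.39, adjusted p = 0.00852), Sp110 (0.65, adjusted p = 0.0199) and Ccnd2 (−0.40, adjusted p = 0.000448). On log2(TPM + 1) by limma the calls of Ccnd2 were lost (adjusted p = 0.0822 and 0.196), as was that of Sp100 in old against young cord (adjusted p = 0.069).

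The genes most like each member were sought over the 6 group means of log2 CPM, centred per gene, among 13915 genes, by the root mean square difference. For Mycl, Tmem52 and Deaf1 this measure weighs the gap between tissues most, since it is their largest contrast. For Smim10l2a (−0.11) and Rpain (0.33) that gap was smaller than the differences of old microglia from the other 2 groups. Nearest to Mycl were Tbc1d16 (0.197), Rest (0.200) and Tram2 (0.201), and nearest to Smim10l2a were Map2k3os (0.128), Tmem86b (0.137) and Ccdc28b (0.169). Nearest to Tmem52 were Phldb3 (0.0909), Batf3 (0.239) and Gsg2 (0.257), nearest to Deaf1 were Dffb (0.0839), Lrrc42 (0.0926) and Msh3 (0.0999), and nearest to Rpain were Pdzk1ip1 (0.104), Pcyox1l (0.123) and Polr1e (0.126). No member was among the 3 nearest of another. Map2k3os (microglial group medians from 0.55 to 0.92 CPM) and Pdzk1ip1 (0.87 to 1.13 CPM) had low counts. Their old minus young differences in microglia were 0.57 (SE 0.86) and 0.05 (SE 0.84), without the fall of Smim10l2a and Rpain. Of these 15 genes, Tbc1d16, Ccdc28b and Pcyox1l were called in both microglial comparisons, in the directions in which 1.27% of 14382 genes were called. The 15 genes were picked in part by their microglial group means, so their microglial calls are a description and no independent result. Tbc1d16, a GTPase-activating protein for Rab proteins, was at 0.64 (SE 0.11, edgeR adjusted p = 0.000127) for repopulated minus old and −0.34 (SE 0.11, adjusted p = 0.0295) for old minus young. Ccdc28b was at 0.76 (adjusted p = 0.0122) and −0.62 (adjusted p = 0.0332), and Pcyox1l at 0.61 (adjusted p = 0.0139) and −1.01 (adjusted p = 5.6e-05). Batf3, a transcription factor known from dendritic cells, was at 0.53 (adjusted p = 0.0486) and −0.47 (adjusted p = 0.0699), but on log2(TPM + 1) by limma the first was not called (0.32, adjusted p = 0.15) and the second was (−0.59, adjusted p = 0.0108). Polr1e, a subunit of RNA polymerase I, was called by edgeR in old against young microglia (−0.63, adjusted p = 0.0335), with 0.36 (adjusted p = 0.288) for repopulated minus old. Each of these 5 genes lost 1 of its calls in these comparisons when a single library was left out. For Pcyox1l only repopulated library 8 had this effect, while for Tbc1d16, Ccdc28b, Batf3 and Polr1e any of several libraries did. Other settings also cost calls. On log2(TPM + 1) by limma, Pcyox1l (0.32, adjusted p = 0.15) and Ccdc28b (0.43, adjusted p = 0.0657) were not called in repopulated against old microglia. With DESeq2 size factors in edgeR, Tbc1d16 (adjusted p = 0.0617), Ccdc28b (adjusted p = 0.055) and Polr1e (adjusted p = 0.0557) were not called in old against young microglia.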

How the data were processed

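Polyadenylated RNA of 48 libraries was prepared with a kit that keeps no strand, per the labels' protocols. STAR 2.5.2b and the build GRCm38.p5 are named in the submitters' processing notes; for the counting tool and annotation, none is named in the labels. The authors deposited whole-number counts per gene, used as they stand, and TPM values, used for per-length levels and as an alternative. The test on counts was that of edgeR 4.0.16 under R 4.3.3 (quasi-likelihood, TMM, filterByExpr with minimum count 10 and minimum total 15) over the 24 libraries of each tissue, and over all 48 for microglia against cord. P-values were Benjamini-Hochberg adjusted over all genes tested, and an adjusted p under 0.05 was a call. SE is the log2 difference divided by the square root of F.

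The members and gene lists were chosen with earlier results of these data known. Named genes are the members, up to 4 per list with the smallest adjusted p, neighbours within 10 kb and the 3 genes most like each member. Positions come from GENCODE M21 and promoters from RefSeq on GRCm38.p6, where 4 of 5 members matched. None of the 168 pairs of libraries within a group agreed within sampling noise, the chi-square divided by the number of genes being 3.24 to 179. Alternatives were DESeq2 1.42.0 size factors and Wald test, total-count scaling, other filters, limma 3.58.1 on log2(TPM + 1), log2(TPM + 0.1) and voom, a replicate block and left-out libraries. The steps were tested on simulated data. The values of 1 list gene are not reported here, though it counts among its list.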

Additional observations from a re-analysis of the deposited data

Results flagged for a closer look

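The highest or lowest of the 8 libraries stood far from the rest of its group in 7 of 30 combinations of gene and group, by the gap to the next library over the whole range (Dixon ratio, 95% critical value 0.526). Chance flags about 1 in 20 groups. Repopulated cord library 6 was the highest in 3 of them, for Rpain (22.3 CPM, next 10.7 CPM, ratio 0.8598), Smim10l2a (25.8 CPM, next 20.3 CPM, ratio 0.6164) and Deaf1 (53.5 CPM, next 43.5 CPM, ratio 0.5891). Mycl was highest in repopulated cord library 5 (10.01 CPM, next 8.58 CPM, ratio 0.6957), lowest in old cord library 3 (7.02 CPM, next 9.196 CPM, ratio 0.5457) and lowest in young microglia library 2 (22.1 CPM, next 28.3 CPM, ratio 0.6109). Deaf1 was highest in young cord library 7 (46.7 CPM, next 42.9 CPM, ratio 0.5386).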

How the results depend on the processing

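Among the members, Mycl in microglia moved by more than its spread on log2(TPM + 1), to 0.70 for repopulated minus old, and on both TPM scales for repopulated minus young, to −0.26 with a pseudocount of 1 and −0.28 with 0.1. Rpain changed sign between tissues, at −0.014 with DESeq2 size factors, −0.013 with the DESeq2 Wald test, −0.40 with total-count scaling, −0.69 on log2(TPM + 1) and −0.73 on log2(TPM + 0.1). Tbc1d16 changed sign for repopulated minus young microglia on both TPM scales (−0.026 each). Members called in cord numbered 1 of 5 in old against young by the DESeq2 Wald test and 1 without repopulated library 6 or without young library 1, and 2 in repopulated against young without repopulated library 6; with each library left out in turn they ran from 0 to 1 and from 1 to 2.

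Genes called in old against young cord numbered 1844 with only the groups compared and 2109 without repopulated library 6, against 1123. In repopulated against old cord they numbered 66 by the DESeq2 Wald test, 12 on log2(TPM + 0.1) and 13 on log2(TPM + 1), against 27, and in repopulated against young cord 1003, 1030 on the same 2 TPM scales and 1211 with only the groups compared, against 1839. In microglia they numbered 4643 and 4779 on these TPM scales for repopulated against old (2336 otherwise) and 7478 and 7378 for repopulated against young (4698 otherwise). List members called were 22 in old against young cord without library 6 (14 otherwise), and in repopulated against old cord 2 by the DESeq2 Wald test and 0 on either TPM scale (1 otherwise). With single libraries left out, genes called ran from 943 to 2109 in old against young cord and from 16 to 57 in repopulated against old cord, and list members called from 12 to 22 and from 1 to 2. The lowest of 16 and the highest of 57 came without old cord library 6 and without repopulated cord library 7, and 17 came without old cord library 8.

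The share of higher genes among calls was 50.7% in old against young microglia (60.9% with DESeq2 size factors, 39.5% on log2(TPM + 0.1)), 55.7% in repopulated against old microglia (17.6% with total-count scaling, 10.4% on log2(TPM + 0.1)), 49.4% in repopulated against young microglia (16.4% on log2(TPM + 0.1)) and 39.8% in microglia against cord (19.9% on log2(TPM + 0.1)). The cause of these changes was not tested. Libraries of the same number did not deviate together (median correlation from −0.19 to 0.08 over pairs of groups), and at most 3 of 8 libraries correlated best with their own number in any pair of groups. With the replicate block, Sp110 in old against young cord was at 0.66 (adjusted p = 0.0641), Batf3 in old against young microglia at −0.54 (adjusted p = 0.0407), Mycl in repopulated against young cord was −0.43, 953 genes were called in old against young cord, and the members called numbered 0 in repopulated against old, 0 in old against young and 1 in repopulated against young cord. Low counts limit Tmem52 in cord.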
